A study of Homo sapiens with 12 samples.

Results

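DHRS2, RELN, CPNE7, ARL14, NEB, SPX, C1S and CHILL1 are 8 non-histone genes that stood among the strongest inductions by paclitaxel in a human triple-negative breast cancer line. They are 8 of the 25049 genes in the deposited count table, and all 8 passed the filter on low counts, as 21974 genes did. The genes were selected on the paclitaxel-against-DMSO values of these same libraries, so those values are given below as a description, with no test. The choice did not directly use the comparison of GLI2 KO with WT cells within each treatment, and that comparison is tested. It draws on the same libraries and is therefore not a fully separate data set. SPX and C1S reached the level used for ranking below only in GLI2 KO cells with paclitaxel, and CHILL1 ranked far higher in GLI2 KO cells. For these genes the choice could favour GLI2 KO over WT with paclitaxel, so that test is not independent of the choice.

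The cells were MDA-MB-231b, a bone-tropic lineage of the mesenchymal-like line MDA-MB-231 recovered from bone marrow after passage in athymic nude mice. Lentivirus delivered CRISPR-Cas9 with a guide against GLI2, a transcription factor of the Hedgehog pathway, for the GLI2 KO cells. The WT cells received a non-targeted guide, so both genotypes carry the vector. The sources used here do not say whether either line is a clone or a pool. Each genotype was kept for 2 days in medium with 50 nM paclitaxel, a drug that stabilises microtubules, or in DMSO, the solvent. The 4 groups of 3 libraries of polyA RNA were GLI2 KO with paclitaxel, GLI2 KO with DMSO, WT with paclitaxel and WT with DMSO. Nothing in the labels says that replicate libraries come from separate cultures; the p-values measure the spread between libraries, which may be technical.

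The 8 genes have no common pathway. RELN encodes reelin, a large secreted glycoprotein that guides migrating neurons by binding the receptors VLDLR and LRP8, which signal through the adaptor DAB1. C1S encodes the serine protease of the first complement complex that, once activated by its partner C1R, cleaves complement C4 and C2. SPX encodes the peptide hormone spexin, a ligand of the galanin receptors GALR2 and GALR3. DHRS2 is a short-chain dehydrogenase that reduces dicarbonyl compounds. CPNE7 is a copine, one of a family of proteins that bind membrane phospholipids in the presence of calcium. ARL14 is an ARF-like small GTPase, known from dendritic cells for linking vesicles that carry MHC class II to the motor protein MYO1E through ARL14EP. NEB encodes nebulin, the giant protein that lies along the thin filament of skeletal muscle. CHILL1 is a long noncoding RNA.

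Promoter windows from RefSeq (GRCh38.p14) were at hand for 4 of the 8 genes: DHRS2, RELN, NEB and SPX. They are shown to compare the start regions of genes that were higher under the same drug. Each runs 5′ to 3′ on the strand of its gene and covers 250 bases before to 50 bases after the start. The windows are chr14:23629865-23630164 on the plus strand for DHRS2, chr7:103989609-103989908 on the minus strand for RELN, chr2:151734427-151734726 on the minus strand for NEB and chr12:21527702-21528001 on the plus strand for SPX. Capitals mark the TATA box in DHRS2, the GC boxes and an EGR site in RELN, the CCAAT box read on the other strand in NEB, and the GC boxes in SPX.
DHRS2: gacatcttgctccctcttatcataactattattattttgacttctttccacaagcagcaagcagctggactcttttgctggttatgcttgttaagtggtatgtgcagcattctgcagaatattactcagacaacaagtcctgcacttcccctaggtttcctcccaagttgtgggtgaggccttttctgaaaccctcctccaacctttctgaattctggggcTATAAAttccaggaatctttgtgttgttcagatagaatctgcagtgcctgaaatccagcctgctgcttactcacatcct
RELN: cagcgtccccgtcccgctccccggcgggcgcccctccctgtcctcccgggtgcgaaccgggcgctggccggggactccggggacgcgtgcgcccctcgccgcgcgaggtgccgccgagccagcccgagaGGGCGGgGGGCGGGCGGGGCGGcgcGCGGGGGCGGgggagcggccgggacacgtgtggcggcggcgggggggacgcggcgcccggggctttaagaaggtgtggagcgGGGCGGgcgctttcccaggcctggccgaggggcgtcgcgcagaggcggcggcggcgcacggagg
NEB: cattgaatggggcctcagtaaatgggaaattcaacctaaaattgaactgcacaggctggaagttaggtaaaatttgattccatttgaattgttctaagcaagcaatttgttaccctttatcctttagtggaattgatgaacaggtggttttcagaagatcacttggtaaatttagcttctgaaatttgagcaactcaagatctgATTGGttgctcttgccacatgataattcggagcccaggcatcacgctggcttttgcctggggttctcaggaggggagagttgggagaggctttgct
SPX: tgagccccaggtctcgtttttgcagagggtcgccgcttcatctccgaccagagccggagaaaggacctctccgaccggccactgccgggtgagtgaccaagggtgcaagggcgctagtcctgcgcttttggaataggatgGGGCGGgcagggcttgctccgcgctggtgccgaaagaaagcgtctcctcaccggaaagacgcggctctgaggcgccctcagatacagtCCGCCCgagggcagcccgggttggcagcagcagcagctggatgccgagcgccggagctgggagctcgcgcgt

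The windows differed most in base composition. RELN had a GC content of 83.3% and 52 CpG dinucleotides, and 0.547% of the 35116 promoters in the table had a higher GC content. SPX had 66.3% GC and 28 CpGs. NEB with 42.3% GC and 2 CpGs, and DHRS2 with 44.0% GC and 0 CpGs, lay below the medians of 58.7% and 14 CpGs over all promoters. A search of both strands for 8 motifs found a TATA box (TATAAA, in 11.5% of all promoters) in DHRS2, with its first base 29 bases before the start. GC boxes (GGGCGG, in 45.0%) occurred 6 times in RELN and 2 times in SPX. RELN also held an EGR site (GCGNGGGCG, in 9.43%), whose first base lay 96 bases before the start and which overlapped a GC box. A CCAAT box (CCAAT, in 34.6%) was found in NEB, 46 bases before the start. The AP-1 site (TGANTCA, in 7.71%), the cAMP response element (TGACGTCA, in 1.85%), an NF-kB site (GGANTTTCC, in 1.64%) and a GLI site (GACCACCCA, in 0.236%) had no match in the 4 windows. A match is a description of letters, and the lack of one says only that these letters are not in the window.

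Each library held between 83230948 and 109018776 counts, at which 3 counts correspond to 0.0275 to 0.036 CPM by library total. CPM means counts scaled to library size. The levels of the 8 genes, their lists and neighbours use edgeR's TMM factors, while sums over cell type markers use library totals. Mitochondrial genes took 4.83% to 5.33% of the counts with paclitaxel and 3.99% to 4.69% with DMSO. GLI2 transcripts remained in the GLI2 KO cells, at 3.97 to 4.39 CPM with paclitaxel and 8.23 to 10.1 CPM with DMSO, against 4.97 to 6.42 and 10.4 to 11.4 CPM in WT cells. A guided cut need not lower the transcript, so this does not check the knockout. Markers of the labelled line were abundant in every library: 7 genes led by VIM summed to 4900 to 6070 CPM. Of the luminal markers, ESR1 was not listed in the table and the other 5 summed to 69.9 to 76.7 CPM, of which most was ERBB2. Within groups, replicate 3 of GLI2 KO with DMSO, replicate 3 of GLI2 KO with paclitaxel and replicate 2 of WT with DMSO stood apart from their partners, with a chi-square of 7.22 to 18 per degree of freedom over genes, against 2.91 to 4.99 for the other pairs. A call below means an adjusted p under 0.05 over all tested genes.

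With paclitaxel, all 8 genes were higher in every library than in any DMSO library of the same genotype, which is what they were chosen for. Groups that did not overlap and were higher with paclitaxel made up 34.4% of all tested genes in GLI2 KO cells and 37.1% in WT cells. In GLI2 KO cells the ratio of group means ran from 6.97 for NEB to 41.7 for DHRS2, and in WT cells from 3.32 for CHILL1 to 22.9 for C1S. Together the 8 genes summed to 160, 178 and 206 CPM in the GLI2 KO libraries with paclitaxel, against 11.9, 12.7 and 10.5 CPM with DMSO. In WT cells they summed to 125, 127 and 114 CPM with paclitaxel, against 9.97, 8.66 and 9.7 CPM with DMSO. DHRS2 and RELN supplied most of these sums.

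**Figure D1:**
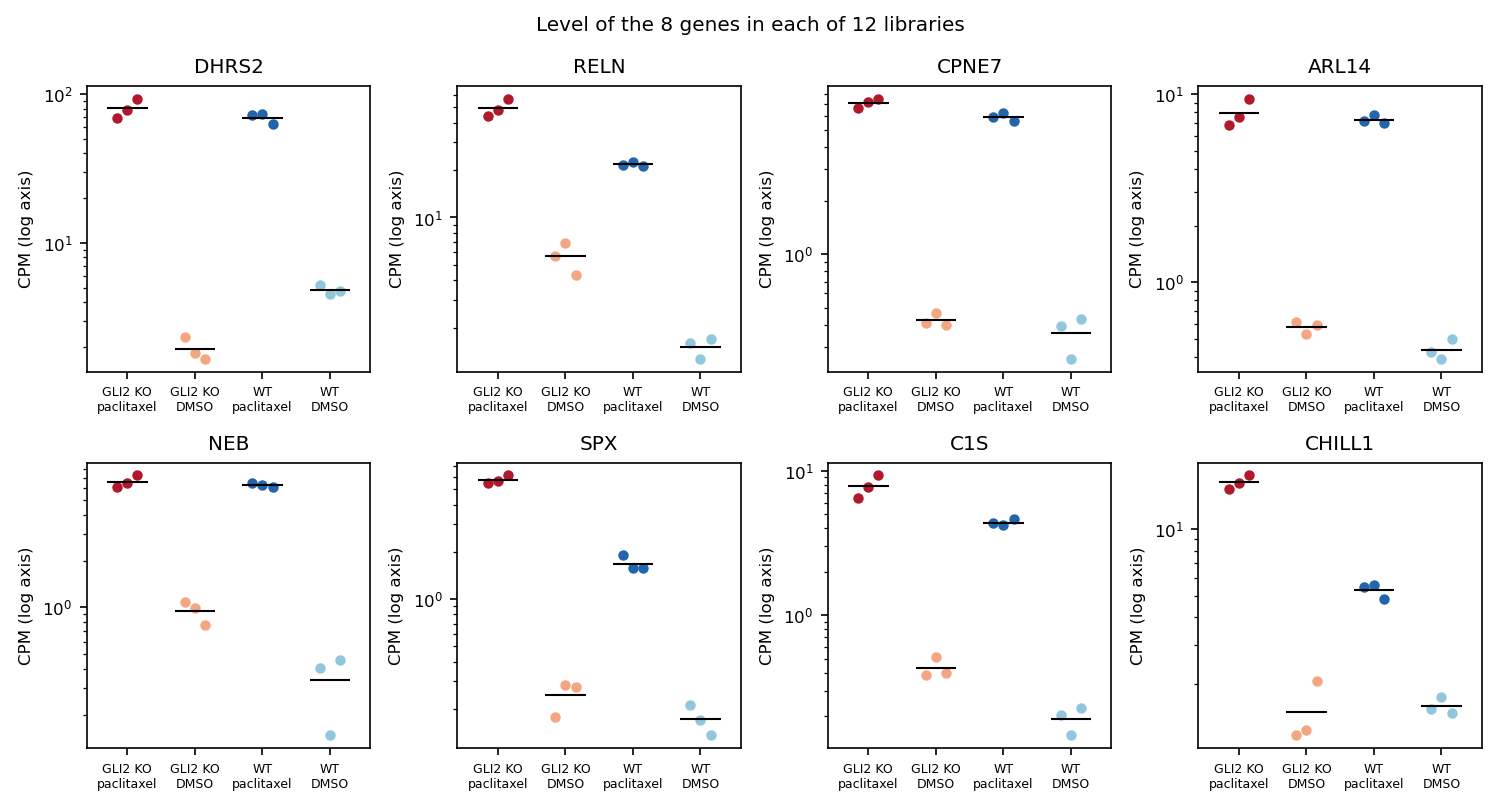
Level of each of the 8 genes in CPM on a log axis, with 1 point per library and a line at the group mean, for GLI2 KO and WT cells with paclitaxel or DMSO (3 libraries per group). In each panel the paclitaxel libraries lie above the DMSO libraries of the same genotype; DHRS2 with paclitaxel averaged 80.4 CPM in GLI2 KO cells and 69.3 CPM in WT cells.

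No numerical limit for membership is recorded, so the standing of the 8 genes is given by rank. The first ranks leave out genes listed without a symbol. Among the 10946 non-histone genes with a symbol and at least 5 CPM in some group of the GLI2 KO cells, DHRS2 was 2nd by fold change. SPX was 5th, C1S 7th, CPNE7 8th, ARL14 9th and CHILL1 10th, while RELN was 17th and NEB 21st. Among 10921 such genes in WT cells, NEB was 2nd, ARL14 3rd, CPNE7 4th, DHRS2 5th and RELN 6th, and CHILL1 was 59th. SPX and C1S did not reach 5 CPM in WT cells. Of the 8, only RELN in GLI2 KO cells averaged 5 CPM or more with DMSO, so the others pass this limit through their paclitaxel level. With no such limit, among all 21974 tested genes, the 8 ranked from 159th for DHRS2 to 932nd for NEB in GLI2 KO cells and from 339th for C1S to 2237th for CHILL1 in WT cells. In GLI2 KO cells CHILL1, with a log2 fold change of 3.42, stood next to ARRDC4 with 3.37, which is no member. In WT cells RELN, with 3.83, stood next to ARRDC3 with 3.73, also no member. Among the genes with a symbol and at least 5 CPM, DNAH3, an axonemal dynein heavy chain outside the 8, was first in both genotypes. It had 5.97 in GLI2 KO cells and 6.19 in WT cells. Genes without a symbol that reached 5 CPM with paclitaxel included values of 6.81 in GLI2 KO cells and 6.39 in WT cells.

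The level per kilobase of annotated exon set the genes in another order. With paclitaxel in GLI2 KO cells the means were 18.4 CPM per kilobase for CHILL1, 10.6 for DHRS2, 6.15 for ARL14, 3.91 for RELN, 2.34 for CPNE7, 1.21 for C1S, 0.796 for SPX and 0.215 for NEB. NEB has 30567 exon bases in GENCODE 29 and CHILL1 has 881, the most and the fewest of the 8. All exons of a gene were merged for this, and the isoforms in use were not analysed here.

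RELN (chr7:103471784-103989516, minus strand, positions here and below from GENCODE 29 on hg38) stood apart in each of the 4 groups, none of which overlapped another. Its 3 GLI2 KO libraries held 43.9, 48.1 and 56.4 CPM with paclitaxel and 5.74, 6.91 and 4.32 CPM with DMSO. WT libraries held 21.6, 22.5 and 21.2 CPM with paclitaxel and 1.6, 1.27 and 1.69 CPM with DMSO. Every GLI2 KO library thus lay above every WT library of the same treatment. The log2 fold change of GLI2 KO over WT was 1.19 ± 0.13 (SE) with paclitaxel, with an edgeR adjusted p of 5.86e-05, and 1.88 ± 0.22 with DMSO, with an edgeR adjusted p of 9.14e-05. Paclitaxel over DMSO came to 3.13 ± 0.15 in GLI2 KO cells and 3.83 ± 0.19 in WT cells. In absolute terms the order turned round: paclitaxel added 43.8 CPM in GLI2 KO cells and 20.3 CPM in WT cells.

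Of the 15 other genes of the reelin pathway, 14 could be tested. Both receptor genes fell with paclitaxel. LRP8 had a log2 change with paclitaxel of -0.66 ± 0.03 in GLI2 KO cells and -0.63 ± 0.03 in WT cells, and VLDLR of -0.37 ± 0.11 and -0.87 ± 0.12, all called; scaled to library totals VLDLR in GLI2 KO cells had -0.19 and was not called, with an edgeR adjusted p of 0.119 and a range over 13 alternatives of 0.00206 to 0.119. VLDLR was higher in GLI2 KO than in WT cells, by 1.28 ± 0.12 with paclitaxel (edgeR adjusted p 3.77e-09) and by 0.78 ± 0.11 with DMSO (edgeR adjusted p 2.55e-06). ADAMTS5 and ADAMTS3, secreted proteases that cut reelin, were also higher in GLI2 KO cells: ADAMTS5 by 2.83 ± 0.19 and ADAMTS3 by 2.07 ± 0.25 with paclitaxel, and by 4.04 ± 0.26 and 2.92 ± 0.30 with DMSO. Both were low in WT cells, where they averaged 0.311 and 0.222 CPM with paclitaxel and 0.0875 and 0.101 CPM with DMSO. ADAMTS4 had 34 counts over the WT libraries with paclitaxel and 0 with DMSO, at least 12.4-fold higher against a floor of 3 counts over the group. Over the 14 genes, 4 rose and 6 fell with paclitaxel in GLI2 KO cells, and 7 rose and 6 fell in WT cells; when scaled to library totals, 9 rose and 3 fell in GLI2 KO cells and 8 rose and 4 fell in WT cells. For all protein-coding genes tested the shares with TMM factors were 29.2% rising and 44.9% falling in GLI2 KO cells, and 28.8% and 45.3% in WT cells. Scaled to library totals they were 46.5% and 24.5% in GLI2 KO cells, and 44.0% and 27.7% in WT cells.

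C1S (chr12:6988259-7071032, plus strand) was also higher in GLI2 KO cells with both treatments, from a lower base. It stood at 6.45, 7.76 and 9.28 CPM in GLI2 KO libraries with paclitaxel and at 0.385, 0.51 and 0.4 CPM with DMSO. In WT libraries it stood at 4.34, 4.21 and 4.6 CPM with paclitaxel and at 0.203, 0.147 and 0.226 CPM with DMSO. No 2 of the 4 groups overlapped. GLI2 KO exceeded WT by 0.84 ± 0.10 on the log2 scale with paclitaxel (edgeR adjusted p 3.28e-07) and by 1.16 ± 0.27 with DMSO (edgeR adjusted p 0.00106). The DMSO values rest on 12 to 45 counts per library. Of its exon bases 3.54% are shared with other genes, the largest part with EMG1, whose mean lay between 17.0 and 20.6 CPM in all 4 groups. The paclitaxel effect on C1S was 4.18 ± 0.15 in GLI2 KO cells and 4.49 ± 0.18 in WT cells.

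The rest of the complement list did not follow C1S as a block. C1R, which activates C1S and is its nearest tested neighbour on 1 side, 9167 bases away, had a log2 change with paclitaxel of 0.08 ± 0.18 in GLI2 KO cells and 0.10 ± 0.17 in WT cells, neither called. MASP2, the serine protease of the lectin pathway that cleaves the same substrates, rose by 2.83 ± 0.23 in GLI2 KO cells and 2.50 ± 0.27 in WT cells. C9, a subunit of the membrane attack complex, rose by 3.17 ± 0.47 and 3.38 ± 0.50. The receptor gene C5AR1 rose by 2.42 ± 0.27 and 2.17 ± 0.26. All 3 had means under 2 CPM in every group. Of 21 tested genes 11 rose and 5 fell in GLI2 KO cells, and 11 rose and 3 fell in WT cells, with medians of 0.40 and 0.53 against 0.02 and 0.03 over all genes tested. Scaled to library totals, 13 rose and 3 fell in GLI2 KO cells and 16 rose and 2 fell in WT cells, to be read against the shares of all protein-coding genes given with the reelin pathway. Between genotypes 4 genes were higher and 3 lower in GLI2 KO cells with paclitaxel, and 5 higher and 4 lower with DMSO.

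SPX (chr12:21526307-21541249, plus strand) differed between genotypes once the drug was present. Its GLI2 KO libraries held 5.48, 5.66 and 6.13 CPM with paclitaxel and 0.179, 0.283 and 0.278 CPM with DMSO. WT libraries held 1.9, 1.57 and 1.57 CPM with paclitaxel and 0.212, 0.171 and 0.136 CPM with DMSO. The DMSO groups overlapped, while each GLI2 KO library with paclitaxel was well above each WT library. On the log2 scale GLI2 KO over WT was 1.78 ± 0.11 with paclitaxel (edgeR adjusted p 1.18e-12) and 0.51 ± 0.27 with DMSO (edgeR adjusted p 0.138). The DMSO values rest on 12 to 25 counts per library, and this p does not show that the genotypes were alike. Of the exon bases of SPX 5.19% are shared with other genes, the largest part with GYS2, which is not in the count table. For SPX, paclitaxel over DMSO came to 4.52 ± 0.15 in GLI2 KO cells and 3.25 ± 0.18 in WT cells.

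Of 7 genes for related peptides and receptors, 4 were tested. GAL, which encodes the related peptide galanin, was lower in GLI2 KO cells: it averaged 0.467 CPM in GLI2 KO and 3.68 CPM in WT cells with paclitaxel, and 0.102 and 1.72 CPM with DMSO. Those are log2 changes of -2.97 ± 0.14 and -4.07 ± 0.21, both called. GAL rose with paclitaxel by 2.19 ± 0.27 in GLI2 KO cells and 1.10 ± 0.12 in WT cells, and KISS1, encoding kisspeptin, by 0.81 ± 0.05 and 0.54 ± 0.05. The spexin receptor genes GALR2 and GALR3 stayed below 0.4 CPM on average in every group. With paclitaxel 3 of the 4 rose in each genotype; the remaining gene was GALR2 in GLI2 KO cells, with 0.41 ± 0.28, and GALR3 in WT cells, with 0.26 ± 0.50. The call for GALR2 in WT cells was lost with DESeq2 (0.69) and without replicate 1 of WT with DMSO (0.48), or replicate 1 (0.65) or 2 (0.59) of WT with paclitaxel, and that for GALR3 in GLI2 KO cells without replicate 1 of GLI2 KO with paclitaxel (1.41).

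DHRS2 (chr14:23630115-23645639, plus strand) was the most abundant of the 8 in CPM with paclitaxel and the one with the lowest GLI2 KO level relative to WT in DMSO. GLI2 KO libraries held 69.6, 78.7 and 92.7 CPM with paclitaxel and 2.31, 1.81 and 1.66 CPM with DMSO. WT libraries held 71.9, 73.2 and 62.9 CPM with paclitaxel and 5.17, 4.52 and 4.78 CPM with DMSO. In DMSO the genotypes did not overlap, whereas in paclitaxel they did. GLI2 KO over WT was 0.22 ± 0.11 with paclitaxel (edgeR adjusted p 0.137) and -1.34 ± 0.20 with DMSO (edgeR adjusted p 0.000574). Without replicate 1 of GLI2 KO with paclitaxel the first of these became 0.31 with an edgeR adjusted p of 0.0206; over 13 alternatives the adjusted p ran from 0.0206 to 0.372. Paclitaxel over DMSO was 5.39 ± 0.16 in GLI2 KO cells and 3.84 ± 0.14 in WT cells. Paclitaxel added 78.4 CPM in GLI2 KO cells and 64.5 CPM in WT cells.

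The other DHRS dehydrogenases did not share this rise. Of 9 tested, 6 fell and 1 rose with paclitaxel in GLI2 KO cells, and 8 fell in WT cells, with medians of -0.29 and -0.36, where 44.9% and 45.3% of all protein-coding genes fell. Scaled to library totals, 4 fell and 2 rose in GLI2 KO cells with a median of -0.11, and 7 fell and 1 rose in WT cells with a median of -0.20. DHRS11 had a log2 change of -0.75 ± 0.05 in GLI2 KO cells and -0.76 ± 0.05 in WT cells. DHRS9 was the one that rose with TMM factors, at 0.146 CPM with paclitaxel and 0.0268 CPM with DMSO in GLI2 KO cells. DHRS12 was lower in GLI2 KO than in WT cells, with log2 differences of -0.83 ± 0.15 with paclitaxel and -1.09 ± 0.15 with DMSO. For DHRS4, the nearest tested gene on 1 side of DHRS2, they were -0.47 ± 0.06 and -0.62 ± 0.06.

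CPNE7 (chr16:89575768-89597246, plus strand) had the smallest difference in response between genotypes of the 8. It was present at 6.7, 7.24 and 7.49 CPM in GLI2 KO libraries with paclitaxel and at 0.41, 0.465 and 0.4 CPM with DMSO. In WT libraries it was present at 5.95, 6.26 and 5.64 CPM with paclitaxel and at 0.396, 0.257 and 0.429 CPM with DMSO. The genotypes overlapped in DMSO and lay close, without overlap, in paclitaxel. GLI2 KO over WT was 0.27 ± 0.08 with paclitaxel (edgeR adjusted p 0.0112) and 0.22 ± 0.20 with DMSO (edgeR adjusted p 0.402). The call in paclitaxel was lost without replicate 3 of GLI2 KO (0.23, edgeR adjusted p 0.0546) or replicate 3 of WT (0.23, edgeR adjusted p 0.0613); over 13 alternatives it ran from 0.00313 to 0.0613. Relative to DMSO, paclitaxel gave 4.07 ± 0.12 in GLI2 KO cells and 4.02 ± 0.13 in WT cells.

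Among 7 other copines, 3 rose and 4 fell with paclitaxel in each genotype, and 3 rose and 2 fell when scaled to library totals. CPNE9 rose by 2.79 ± 0.39 in GLI2 KO cells and 2.85 ± 0.43 in WT cells from means under 0.1 CPM. CPNE4 had 21 counts over the WT libraries with paclitaxel against 3 with DMSO, a ratio of 7.63 with a 95% counting interval of 2.28 to 40.0. CPNE2 fell in both, by 0.74 and 0.71 on the log2 scale, and was lower in GLI2 KO than in WT cells, with log2 differences of -0.70 ± 0.06 with paclitaxel and -0.66 ± 0.06 with DMSO. CPNE3, with means of 161 to 278 CPM, was higher in GLI2 KO cells by 0.53 ± 0.03 with paclitaxel and 0.57 ± 0.03 with DMSO.

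ARL14 (chr3:160677159-160678452, plus strand, 1 exon) was the only one of the 8 with no call between genotypes in either treatment. GLI2 KO libraries held 6.86, 7.6 and 9.43 CPM with paclitaxel and 0.615, 0.533 and 0.589 CPM with DMSO. WT libraries held 7.19, 7.79 and 7.03 CPM with paclitaxel and 0.425, 0.391 and 0.497 CPM with DMSO. The paclitaxel groups overlapped; the DMSO groups did not, though the gap was small. GLI2 KO over WT was 0.12 ± 0.09 with paclitaxel (edgeR adjusted p 0.287) and 0.40 ± 0.20 with DMSO (edgeR adjusted p 0.121). These p-values do not show that the genotypes were alike. Without replicate 3 of GLI2 KO with paclitaxel the first difference was -0.02. Paclitaxel over DMSO was 3.79 ± 0.13 in GLI2 KO cells and 4.06 ± 0.14 in WT cells.

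The list of ARF-like GTPases with the ARL14 partners ARL14EP, ARL14EPL and MYO1E had 20 tested genes. With paclitaxel 7 rose and 9 fell in GLI2 KO cells, and 6 rose and 11 fell in WT cells; scaled to library totals 11 rose and 6 fell, and 9 rose and 3 fell. ARL9 rose by 2.99 ± 0.28 in GLI2 KO cells and 2.94 ± 0.30 in WT cells, from means near 0.1 CPM with DMSO. ARL14EPL rose by 2.95 ± 0.70 and 3.27 ± 0.83, also from a mean under 0.1 CPM. ARL15 was higher in GLI2 KO cells, by 0.38 ± 0.05 with paclitaxel and 0.35 ± 0.05 with DMSO.

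NEB (chr2:151485336-151734487, minus strand, 182 merged exons) differed between genotypes with DMSO and overlapped with paclitaxel. GLI2 KO libraries held 6.04, 6.45 and 7.23 CPM with paclitaxel and 1.08, 0.987 and 0.767 CPM with DMSO. WT libraries held 6.45, 6.23 and 6.09 CPM with paclitaxel and 0.406, 0.147 and 0.452 CPM with DMSO. Replicate 2 of WT with DMSO, with 12 counts, was far below its partners. GLI2 KO over WT was 0.07 ± 0.12 with paclitaxel (edgeR adjusted p 0.645) and 1.45 ± 0.23 with DMSO (edgeR adjusted p 3.62e-05). The DMSO difference was 1.13 without that library and was still called. Paclitaxel over DMSO was 2.81 ± 0.15 in GLI2 KO cells and 4.19 ± 0.18 in WT cells, while the amount added was 5.63 CPM and 5.92 CPM. Of the exon bases of NEB 0.543% are shared with other genes, the largest part with RIF1 on the neighbouring locus. RIF1 had means of 167 to 225 CPM. It fell by 0.24 in GLI2 KO cells and by 0.22 in WT cells on the log2 scale. Scaled to library totals it had -0.06 and -0.07, neither called.

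Thin filament and sarcomere genes were tested for 22 of 36 listed. With paclitaxel 13 rose and 7 fell in GLI2 KO cells, and 12 rose and 6 fell in WT cells. Medians were 0.56 and 0.46, against 0.02 and 0.03 over all genes tested. Scaled to library totals 14 rose and 6 fell, and 13 rose and 5 fell. The shares of all protein-coding genes stand with the reelin pathway. With TMM factors LASP1, TMOD3, TPM1, TPM3, TPM4 and TNNT1 fell in both genotypes, with means of 35.0 CPM or more in every group. TPM4 had a log2 change of -0.70 in GLI2 KO cells and -0.53 in WT cells. XIRP1, an actin-binding protein of striated muscle, rose by 4.07 ± 0.41 in GLI2 KO cells and 4.42 ± 0.45 in WT cells and stayed under 1 CPM. TNNT2, the cardiac troponin T gene, had 81 counts over the GLI2 KO libraries with paclitaxel and 0 with DMSO, at least 26.7-fold higher against the floor of 3 counts over the group. MYOZ3 had 35 and 0 counts there, at least 11.5-fold higher. NEBL, the nebulin relative nebulette, was higher in GLI2 KO than in WT cells by 0.81 ± 0.19 with paclitaxel and 0.88 ± 0.22 with DMSO. The skeletal muscle markers summed to 0.982 to 1.28 CPM with paclitaxel and 0.0525 to 0.147 CPM with DMSO in GLI2 KO cells, and to 1.62 to 1.79 and 0.0867 to 0.156 CPM in WT cells. Of 8 such markers, MYOD1, MYOG, MYH1, MYH2 and MYH7 were not listed in the table, and the part of the other 3 in these results was not tested.

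**Figure D2:**
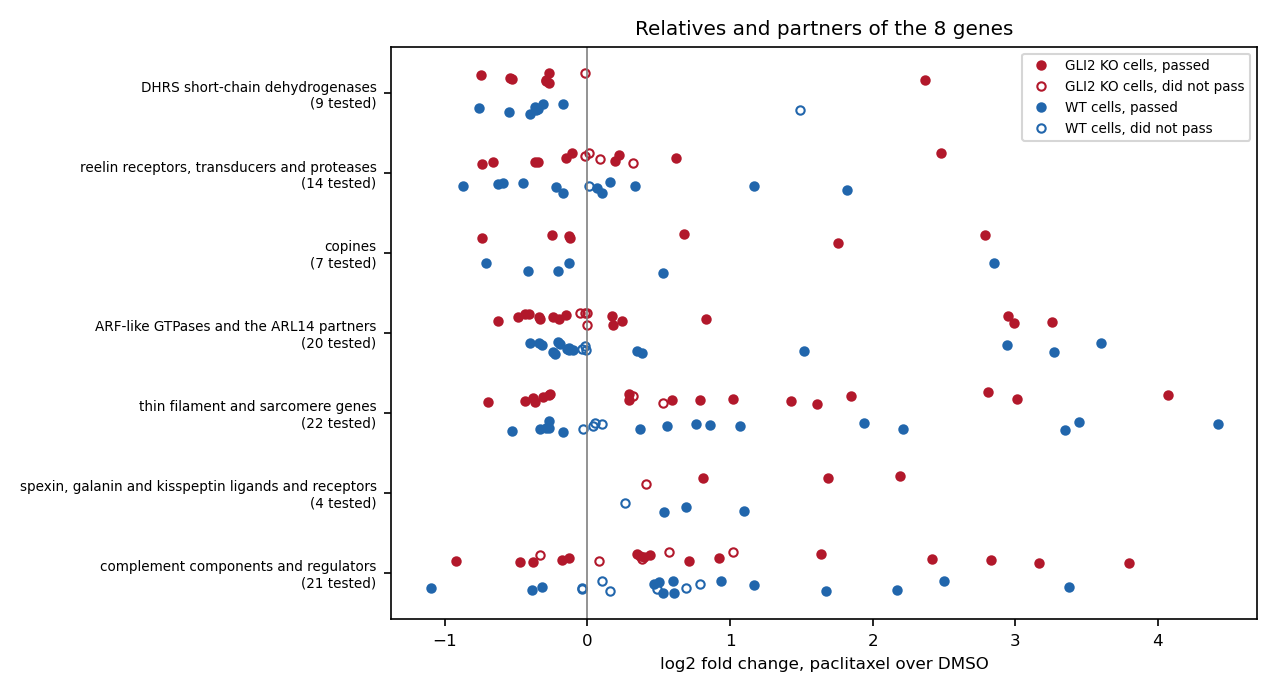
Log2 fold change of paclitaxel over DMSO for the other tested genes of 7 lists of relatives and partners, with GLI2 KO above WT in each row. Filled points passed at an adjusted p under 0.05 and open points did not; genes whose 3 libraries of a group held at most 3 counts together are left out. Of 9 DHRS genes 8 fell in WT cells, while 12 of 22 thin filament genes rose and 6 fell there.

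CHILL1 is annotated as an antisense noncoding gene on chromosome 8 (23071377 to 23074488, minus strand, 3 exons). Its GLI2 KO libraries held 15.1, 16.1 and 17.4 CPM with paclitaxel and 1.18, 1.25 and 2.08 CPM with DMSO. WT libraries held 5.5, 5.62 and 4.82 CPM with paclitaxel and 1.55, 1.76 and 1.49 CPM with DMSO. With paclitaxel the genotypes lay far apart, and with DMSO replicate 3 of GLI2 KO was above all WT libraries while its partners were below them. GLI2 KO over WT was 1.61 ± 0.12 with paclitaxel (edgeR adjusted p 1.43e-08) and -0.08 ± 0.18 with DMSO (edgeR adjusted p 0.772). Without replicate 3 of GLI2 KO with DMSO this DMSO difference was -0.39 with an edgeR adjusted p of 0.0222; over 13 alternatives it ran from 0.0222 to 0.984. Without replicate 1 or 2 it was 0.06 or 0.05. Paclitaxel over DMSO was 3.42 ± 0.14 in GLI2 KO cells and 1.73 ± 0.15 in WT cells. TNFRSF10B, the gene for a TRAIL receptor 2198 bases away, had means of 130 to 142 CPM in all groups. Its log2 change with paclitaxel was 0.04 ± 0.03 in GLI2 KO cells, not called, and -0.08 ± 0.03 in WT cells, called, which became 0.07 when scaled to library totals. The sources used here do not give whether counting used strand, so reads from opposite strands cannot be told apart.

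**Figure D3:**
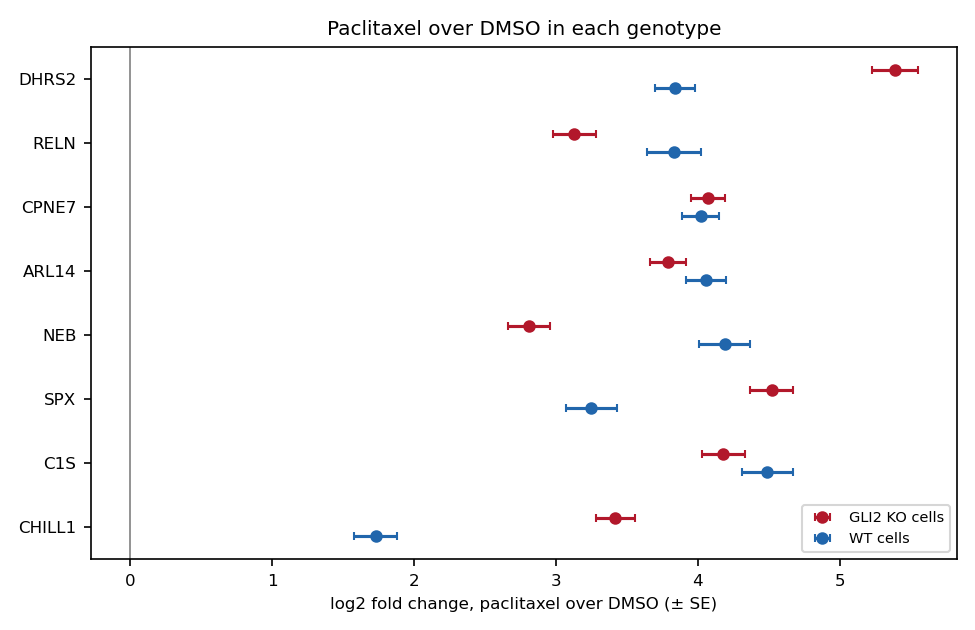
Log2 fold change of paclitaxel over DMSO for each of the 8 genes in GLI2 KO and WT cells; points are edgeR estimates and bars are 1 SE. The genes were selected on these values: DHRS2 had 5.39 in GLI2 KO and 3.84 in WT cells, CPNE7 4.07 and 4.02, and NEB 2.81 and 4.19.

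Set side by side, the genotype comparisons called 5 of the 8 genes with paclitaxel, all higher in GLI2 KO cells: RELN, CPNE7, SPX, C1S and CHILL1. Of these, SPX and C1S averaged 5 CPM or more only in GLI2 KO cells with paclitaxel. CHILL1 ranked 10th by fold change in GLI2 KO cells and 59th in WT cells. The choice could thus favour a higher GLI2 KO level with paclitaxel for these genes. With DMSO 4 of 8 were called, RELN, NEB and C1S higher and DHRS2 lower. Over all tested genes 45.6% were called with paclitaxel and 41.6% with DMSO, so the 8 genes were called about as often as genes at large. The groups did not overlap for 5 of 8 genes with paclitaxel, against 55.2% of all genes, and for 5 of 8 with DMSO, against 48.6%. RELN and C1S were the ones called in both treatments.

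**Figure D4:**
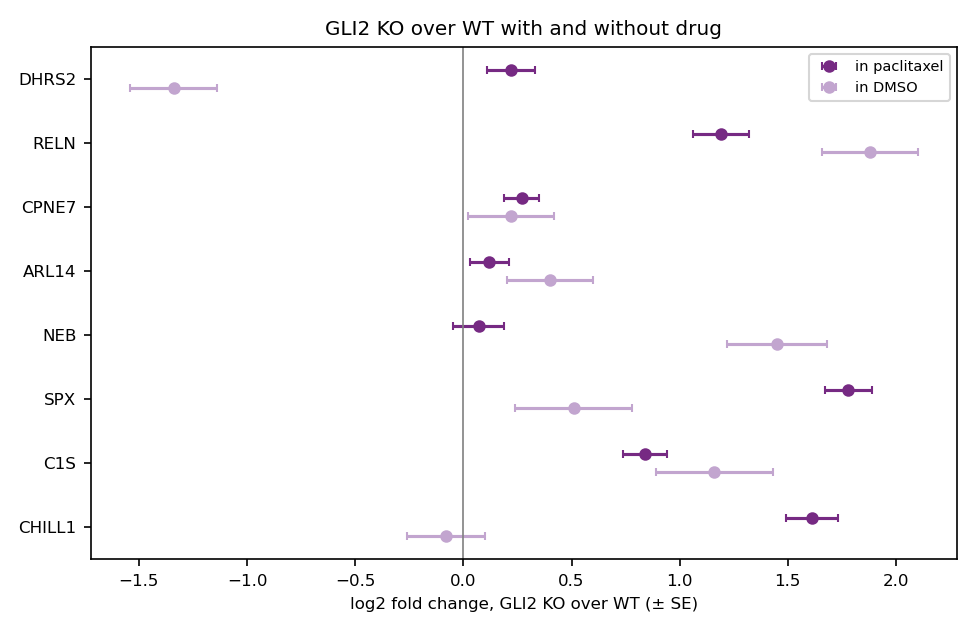
Log2 fold change of GLI2 KO over WT for each of the 8 genes with paclitaxel and with DMSO; points are edgeR estimates and bars are 1 SE. SPX (1.78 and 0.51) and CHILL1 (1.61 and -0.08) lie further right with paclitaxel than with DMSO, NEB (0.07 and 1.45) further left, and DHRS2 (0.22 and -1.34) is left of 0 with DMSO.

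The paclitaxel effect in GLI2 KO cells minus that in WT cells was 1.69 on the log2 scale for CHILL1, 1.55 for DHRS2, 1.27 for SPX, 0.04 for CPNE7, -0.28 for ARL14, -0.32 for C1S, -0.70 for RELN and -1.38 for NEB. Both of its parts were used in choosing the genes, so it has no test here; 13.5% of all tested genes were called for this difference. For CPNE7 it was -0.03 without replicate 1 and -0.09 without replicate 3 of WT with DMSO. For SPX, CHILL1 and CPNE7 the genotype comparison was called with paclitaxel and not with DMSO, and for DHRS2 and NEB with DMSO and not with paclitaxel. CPNE7 had this pattern with a difference of only 0.04, so a call in 1 treatment alone is no test of the difference.

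In 3 of the 4 groups 1 replicate was the extreme one for most of the 8 genes. In GLI2 KO cells with paclitaxel, replicate 3 was highest and replicate 1 lowest for 8 of 8 genes, whereas over all tested genes these libraries were highest and lowest for 37.5% and 34.3%. In WT cells with paclitaxel, replicate 3 was lowest for 7 of 8 genes, against 35.7% of all genes. Replicate 2 was lowest for 6 of 8 genes in WT cells with DMSO, against 37.0% of all genes. GLI2 KO cells with DMSO had no shared order: replicates 1, 2 and 3 were lowest for 3, 1 and 4 of the 8 genes. The coefficient of variation with paclitaxel was 5.66% for CPNE7 to 18.1% for C1S in GLI2 KO cells and 2.91% for RELN and NEB to 11.2% for SPX in WT cells. Replicate 3 of GLI2 KO with paclitaxel is among the libraries that stood apart, and its part in the shared order was not tested.

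Likeness between genes was measured as the Euclidean distance over the 4 group means of log2(CPM + 1), each relative to WT with DMSO, a scale on which low genes move less. Among the 8, CPNE7 and ARL14 were closest at 0.20, then SPX and CHILL1 at 0.27 and CPNE7 and C1S at 0.40. DHRS2 and RELN lay at 1.94 or more from each of the others. Of 11373 other genes with at least 5 CPM in some group, the nearest to DHRS2 was the immediate early transcription factor EGR1 at 0.36. EGR1 averaged 630 and 29.4 CPM in GLI2 KO cells with paclitaxel and with DMSO, and 533 and 45.0 CPM in WT cells. For each of the others the nearest was a gene without a symbol, which is not named here. Both of the nearest 2 to RELN and to ARL14 were of this kind. The genes named next are therefore 2nd nearest. C1S and NEB both had TNFAIP3, an inhibitor of NF-kB signalling, at 0.28 and 0.56, behind a gene without a symbol at 0.19 and 0.45. SPX had STC2, a secreted glycoprotein hormone, at 0.45, and CHILL1 had EGR2, another early growth response factor, at 0.59. LINC02757 lay at 0.48 from CPNE7. These distances cover 4 points that share libraries, and they are descriptions.

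Most genes around the 8 did not rise. Of the 80 protein-coding neighbours, 5 tested genes on each side of each of the 8, 19 rose and 36 fell with paclitaxel in GLI2 KO cells, or 23.8% and 45.0%. In WT cells 18 rose and 41 fell, or 22.5% and 51.2%; the shares over all protein-coding genes stand with the reelin pathway. Scaled to library totals, 36 rose and 20 fell in GLI2 KO cells, or 45.0% and 25.0%, and 32 rose and 29 fell in WT cells, or 40.0% and 36.2%. Called rises of at least 2-fold were found for 8 of the 80 neighbours in GLI2 KO cells and 6 in WT cells. The share of such rises over all genes was not taken, so these counts cannot show whether they were more frequent near the 8. Among all 21974 tested genes a log2 change of 2.81 ranked 932nd in GLI2 KO cells. In WT cells 1.73 ranked 2237th. These ranks are for larger changes and all kinds of gene, so they do not supply that share. EGR3, an early growth response factor gene 378075 bases from CHILL1, rose by 4.67 ± 0.28 in GLI2 KO cells and 1.97 ± 0.24 in WT cells. JPH4, a junctophilin gene 51315 bases from DHRS2, rose by 3.15 ± 0.42 and 2.16 ± 0.31. PTPN6, a protein tyrosine phosphatase gene near C1S, rose by 2.20 ± 0.20 and 3.15 ± 0.22. DPEP1, a dipeptidase gene 16062 bases from CPNE7, rose by 1.68 ± 0.16 and 1.63 ± 0.15, and ABCC9 near SPX by 1.55 ± 0.34 and 1.70 ± 0.24. OTOL1 near ARL14 had 46 counts with paclitaxel and 2 with DMSO over the GLI2 KO libraries, a ratio of 22.7 with a counting interval of 5.94 to 193. In GLI2 KO cells ZFHX2 and CARMIL3 near DHRS2 also rose, by 1.13 ± 0.16 and 1.41 ± 0.36. All these neighbours were low, with DMSO means of 0.944 CPM or less in both genotypes. JPH4 averaged 0.0311 CPM in GLI2 KO and 0.0966 CPM in WT cells with DMSO, and no more than 0.43 CPM in any group.

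Among the nearest tested protein-coding genes on each side, RPL13 near CPNE7 and GOLT1B near SPX fell with paclitaxel in both genotypes. RPL13 had a log2 change of -0.16 ± 0.04 in GLI2 KO cells, which became 0.02 when scaled to library totals, and -0.27 ± 0.04 in WT cells. LPCAT3, which overlaps the annotated C1S gene, had -1.04 ± 0.04 in GLI2 KO cells and -0.83 ± 0.05 in WT cells. RELN lay between PSMC2, 102389 bases away, and ORC5, 136825 bases away. ORC5 was not called in either genotype, with 0.04 ± 0.04 and -0.09 ± 0.04. PPM1L, 77150 bases from ARL14, was higher in GLI2 KO than in WT cells, by 1.0 ± 0.06 with paclitaxel and 1.32 ± 0.06 with DMSO, where ARL14 itself was not called.

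**Figure D5:**
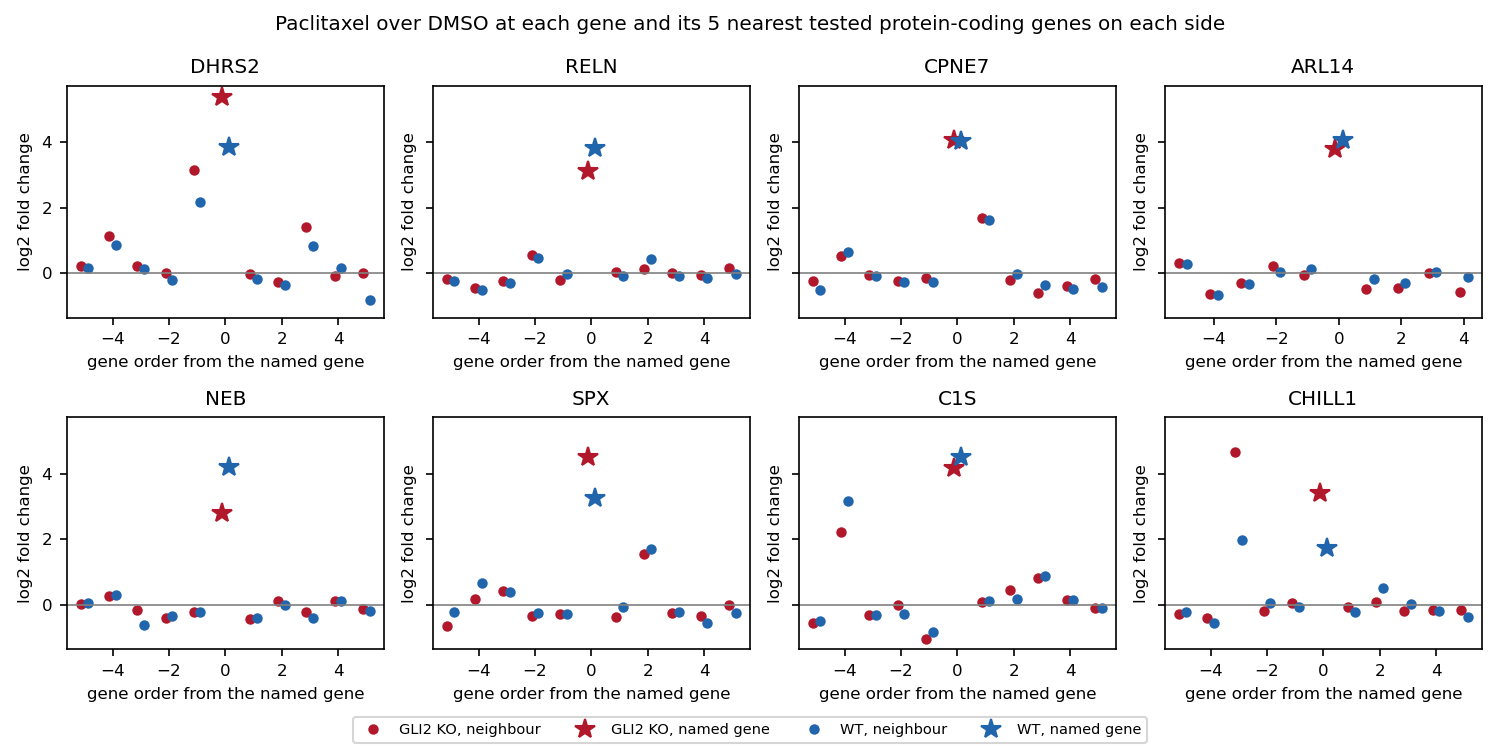
Log2 fold change of paclitaxel over DMSO (vertical axis) for each of the 8 genes (stars) and its 5 nearest tested protein-coding genes on each side (dots), by gene order along the chromosome, in GLI2 KO and WT cells. Most neighbours lie near 0. EGR3 near CHILL1 (4.67 and 1.97) and JPH4 near DHRS2 (3.15 and 2.16) do not, and JPH4 averaged no more than 0.43 CPM in any group. OTOL1, with 2 counts or fewer in a DMSO group, is left out.

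Markers of other cell types were low but were higher with paclitaxel, and their part in the results above was not tested. The haematopoietic list summed to 1.38 to 2.04 CPM with paclitaxel and 0.275 to 0.389 CPM with DMSO in GLI2 KO cells, and to 0.836 to 0.884 and 0.156 to 0.195 CPM in WT cells. Of its 6 genes, 3 were not listed in the table, HBB and CD3E among them. The fibroblast and osteoblast list summed to 29.6 to 33.5 and 13.7 to 18.9 CPM in GLI2 KO cells, and to 18 to 19.4 and 10.8 to 12.5 CPM in WT cells, with COL1A2 and DCN of its 6 genes not listed. For the neuron list, where GAD1 was the most abundant of 5 listed genes and SNAP25 and STMN2 were not listed, the sums were 24.2 to 25.4 and 16.8 to 18.7 CPM in GLI2 KO cells, and 22.5 to 23.9 and 15 to 16.1 CPM in WT cells. In bulk RNA, fewer cells of a kind and less RNA per cell cannot be told apart.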

How the data were processed

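The 12 libraries were polyA RNA of MDA-MB-231b cells, 3 per combination of 2 genotypes and 2 treatments, grouped by the genotype and treatment in the labels. The authors deposited a table of gene counts, whole numbers that were not normalized, and a second table of normalized counts, a signal equal to the counts divided by a size factor per library; the deposited normalized signal was used only to check that relation. The build hg38, DESeq2 1.36.0, STAR and Trim Galore 0.6.7 appear in the submitters' processing notes, without roles. The sources used here give no counter, annotation or strand setting. Every column of both tables belonged to 1 library, and 0 columns were left unused.

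Counts were fitted with edgeR 4.0.16 (R 4.3.3): TMM factors, filterByExpr at its default minimum of 10 counts, which kept 21974 of 25049 genes, robust quasi-likelihood fits with 1 mean per group over all 12 libraries, and F tests with Benjamini-Hochberg adjustment over all tested genes. SE is the absolute log2 fold change divided by the square root of F. CPM uses the same TMM library sizes. Totals of 83230948 to 109018776 counts per library set the precision, and counting intervals and floors leave out other error.

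GENCODE 29 held 23414 of the gene names (93.5%) and gave positions, exon lengths and neighbours; promoter windows came from RefSeq, GRCh38.p14. The 8 genes and all lists were chosen with earlier results of these data known. Named were the 8 genes and up to 3 genes per list and comparison with the largest called change. Neighbours were named if nearest or called at a log2 change of 1 or more with paclitaxel. Of the 2 genes most alike to each of the 8, those without a symbol were not named. EMG1 and genes ranked beside a member were added after their values were seen. Single values of some listed genes are not reported here. Alternatives were DESeq2 1.42.0, other scaling factors, filters on low counts, and leaving out each library in turn.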

Additional observations from a re-analysis of the deposited data

Results flagged for a closer look

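For 14 of the list genes and neighbours named by the rule above, the log2 effect of paclitaxel differed between genotypes. The test was edgeR's test of the difference itself, GLI2 KO minus WT, which called 13.5% of all tested genes. Of these 14, EGR3, a neighbour of CHILL1, had the smallest edgeR adjusted p, 0.000461. EGR3 differed by 2.69 ± 0.42 (4.67 in GLI2 KO and 1.97 in WT cells). List genes and neighbours that the rule did not name are left out, and some had smaller adjusted p-values. ARL14EP, for example, differed by 0.31 ± 0.05 (0.18 in GLI2 KO and -0.13 in WT cells, edgeR adjusted p 9.81e-05).

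In the reelin pathway the effects differed for VLDLR, by 0.50 ± 0.16 (-0.37 in GLI2 KO and -0.87 in WT cells) and ADAMTS5, by -1.21 ± 0.38 (0.62 in GLI2 KO and 1.82 in WT cells). In the complement list they differed for C3, by 3.01 ± 0.79 (3.80 in GLI2 KO and 0.79 in WT cells) and CFP, by -0.93 ± 0.28 (-0.33 in GLI2 KO and 0.61 in WT cells). C3 stayed under 0.3 CPM on average in every group. In the peptide list they differed for GAL, by 1.10 ± 0.31 (2.19 in GLI2 KO and 1.10 in WT cells) and KISS1, by 0.27 ± 0.07 (0.81 in GLI2 KO and 0.54 in WT cells), with larger rises in GLI2 KO cells.

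Among the remaining relatives the effects differed for DHRS13, by -0.19 ± 0.06 (-0.54 in GLI2 KO and -0.35 in WT cells) and TNNC1, by 0.54 ± 0.18 (1.61 in GLI2 KO and 1.07 in WT cells). Among the neighbours they differed for KPNA4, by -0.19 ± 0.05 (-0.06 in GLI2 KO and 0.13 in WT cells), LPCAT3, by -0.21 ± 0.06 (-1.04 in GLI2 KO and -0.83 in WT cells), PPM1L, by -0.32 ± 0.09 (-0.49 in GLI2 KO and -0.17 in WT cells), PSMC2, by -0.19 ± 0.04 (-0.21 in GLI2 KO and -0.02 in WT cells) and TNFRSF10B, by 0.13 ± 0.04 (0.04 in GLI2 KO and -0.08 in WT cells). Adjusted p-values of these 13 genes ran from 0.00525 for PSMC2 to 0.0475 for DHRS13.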

How the results depend on the processing

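No paired analysis was possible because the labels give no replicate numbers. Of 208 genotype values of the 8 genes over the alternatives, 201 kept direction and call, 2 lost a call, 2 gained one and 3 changed sign without a call; they are named with the genes. Of 344 untested values of the paclitaxel effect and its difference, 8 moved by more than the spread (1 SD) between replicates and 2 changed sign, both for the CPNE7 difference. Of 3076 values of the other named genes 2906 kept direction and call, 104 lost a call, 29 gained one and 37 changed sign. The number of the 8 genes called was 4 to 6 with paclitaxel and 4 to 5 with DMSO. Genes called over the whole table numbered 8837 to 10543 and 8070 to 9213 in these genotype comparisons, and 11557 to 15130 in GLI2 KO and 11612 to 15523 in WT cells for paclitaxel against DMSO.

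Scaling bears on the paclitaxel comparisons. Upper-quartile factors shifted the median of all genes by 0.12 in GLI2 KO and 0.13 in WT cells, and library totals by 0.18 and 0.16. The share of calls that were higher was 66.1% and 67.7%, and 73.1% and 70.7%, against 50.6% and 51.9% with TMM. For the 8 genes the shift is small beside their changes. Signs changed with upper-quartile factors and with library totals for PSMC2 (0.11 and 0.13), TNFRSF10B (0.05 and 0.07), LDHB (0.05 and 0.07) and ORC5 (0.04 and 0.07) in WT cells and DHRS4 (0.10 and 0.15), KPNA4 (0.07 and 0.12) and TNFRSF10C (0.04 and 0.10) in GLI2 KO cells, and with library totals for RPL13 in GLI2 KO cells (0.02). A minimum count of 50 gave 0.05 for PSMC2 and 0.04 for DHRS4. Among these, TNFRSF10B and RPL13 had a called value with TMM factors.

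Depth limits the DMSO values of SPX, C1S, NEB, CPNE7 and ARL14, which rest on 12 to 87 counts per library. Leaving out 1 library at a time, values that were not called crossed 0, with these lowest and highest log2 values. In paclitaxel, GLI2 KO over WT ran from -0.25 to 0.08 for ADAMTS4, from -0.02 to 0.22 for ARL14, from -0.06 to 0.18 for C5AR1 and from -0.11 to 0.16 for ZFHX2. In DMSO it ran from -1.42 to 1.47 for ARL14EPL, from -0.08 to 0.80 for ARL9, from -0.09 to 0.79 for C9, from -0.39 to 0.06 for CHILL1, from -0.39 to 0.89 for CPNE9, from -0.56 to 0.70 for DHRS9, from -0.24 to 0.14 for GALR2, from -1.90 to 2.76 for OTOL1 and from -0.17 to 1.26 for XIRP1. Paclitaxel over DMSO ran from -0.03 to 0.20 for C1R in GLI2 KO cells, from -0.38 to 0.65 for GALR3 in WT cells and from -0.31 to 0.16 for TNFRSF10C in GLI2 KO cells. The cause was not tested for any of these.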
